A study of Mus musculus with 8 samples.

Results

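The mitochondrial quality control proteases were 10 genes chosen by name, Lonp1, Clpp, Clpx, Pmpcb, Afg3l2, Spg7, Yme1l1, Oma1, Parl and Htra2. All 10 were found among the 14012 genes of the table. Their transcripts were measured by RNA sequencing of a thigh muscle, the quadriceps femoris (QF), with 1 library for each of 4 Grpel1skm-/- (knockout) and 4 Grpel1 flox/flox (control) mice. In the knockout mice a Cre recombinase under the human α-skeletal actin promoter, switched on by tamoxifen given to young mice, deletes the floxed Grpel1 gene in muscle fibres, so that the other cells of the muscle keep it. GRPEL1 is the nucleotide exchange factor of the matrix chaperone mtHSP70, which pulls imported precursors into the mitochondrial matrix. All 8 mice carried the floxed gene and had standard housing. The labels list no treatment. Where it reports body weight the study describes floxed littermates as untreated, and it also had floxed mice without Cre that were given tamoxifen, but which of them gave these libraries is not stated. If the controls were untreated, deletion and tamoxifen cannot be told apart. If they were the treated mice without Cre, deletion and the presence of Cre cannot be told apart. The age at sampling is not given in the labels.

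Proteins of the mitochondrion are cut and degraded inside it by proteases with separate places of work. In the matrix, LONP1 and the complex of CLPP with CLPX unfold and degrade damaged or unassembled proteins at the cost of ATP, and the mitochondrial processing peptidase, with PMPCB as its catalytic subunit, removes the presequence of imported precursors. In the inner membrane, AFG3L2 and SPG7 (paraplegin) form the m-AAA protease facing the matrix, while YME1L1 (the i-AAA protease) and the stress-activated OMA1 work towards the intermembrane space and both cut the fusion protein OPA1. PARL cuts its substrates within the membrane, among them the mitophagy kinase PINK1, and HTRA2 is a serine protease of the intermembrane space. Mutations in SPG7 and AFG3L2 are known from neurological disease, in which muscle mitochondria can also be affected.

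The promoters of the genes with the largest rise and the largest fall, Lonp1 and Oma1, are shown as those of the pair with the strongest opposite changes. Each is the stretch of 250 bases before the RefSeq gene start in GRCm38.p6, 5′ to 3′ on the strand of the gene. Capitals mark an E-box (CACGTG) and GC boxes (GGGCGG, or CCGCCC where the match was on the other strand). Lonp1 lies on the minus strand, with its promoter at chr17:56626904-56627153, and Oma1 on the plus strand, with its promoter at chr4:103313596-103313845.
Lonp1: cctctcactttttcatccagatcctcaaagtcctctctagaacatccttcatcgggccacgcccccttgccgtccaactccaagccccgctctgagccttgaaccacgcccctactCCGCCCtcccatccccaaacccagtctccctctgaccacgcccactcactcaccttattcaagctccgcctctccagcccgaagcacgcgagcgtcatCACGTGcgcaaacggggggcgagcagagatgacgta
Oma1: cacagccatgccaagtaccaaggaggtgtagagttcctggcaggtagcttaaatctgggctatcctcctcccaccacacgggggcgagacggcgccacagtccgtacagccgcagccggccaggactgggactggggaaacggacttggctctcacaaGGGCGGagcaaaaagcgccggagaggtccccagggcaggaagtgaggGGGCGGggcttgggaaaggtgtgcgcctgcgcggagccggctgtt
Of the 10 genes, 8 were matched by symbol to the RefSeq promoter table, and their windows of 250 bases before to 50 bases after the start were searched on both strands. The composite element bound by ATF4 with CEBP proteins (TGATGNAA), present in 3.97% of all 32851 promoters of the table, was found in 0 of the 8. The NRF1 site, in 2.27% of all promoters, and the heat shock element (GAANNTTCNNGAA), in 0.603%, were also found in 0 of the 8. The E-box and the GC box were added after the sequences had been seen. The E-box, in 7.15% of all promoters, was found in that of Lonp1 alone, from -36 to -31 before the gene start. GC boxes, in 35.7% of all promoters, were found in 5 of the 8, those of Lonp1, Oma1, Clpx, Spg7 and Yme1l1. In Lonp1 the GC box lay from -134 to -129, and in Oma1 GC boxes lay from -92 to -87 and from -45 to -40. GC boxes thus stood before Lonp1, which rose, before Oma1, Spg7 and Clpx, which fell, and before Yme1l1, whose groups overlapped. Clpp, which rose, had none, and Htra2 and Afg3l2, which also rose, were the genes not searched. Over the 8 windows GC content ran from 52.3% to 66%, with a median of 52.7% over all promoters of the table.

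Values are in CPM, counts scaled to library size, with sizes corrected by the TMM method of edgeR, which allows for differences in composition, and a gene was called changed at an adjusted p under 0.01 in the quasi-likelihood test of edgeR, with p-values adjusted over all 14012 genes by the Benjamini-Hochberg method. The libraries held from 16017565 to 18813042 counts in the control and from 16424608 to 20361144 in the knockout. Within each group the libraries were further apart than counting noise gives (chi-square per degree of freedom from 18.1 to 43.7 over the pairs). The deleted gene does not check the labels, as Grpel1 had 68.4 ± 3.04 CPM in the control and 65.3 ± 6.11 in the knockout (SD, n = 4 each; log2 fold change -0.07, adjusted p = 0.487), and the groups are therefore called by their labels. Composition differed between the groups, and TMM factors were 0.747 to 0.844 in the control and 1.19 to 1.33 in the knockout. The summed level of 8 muscle fibre markers ran from 201652 to 259717 CPM in the control and from 64249 to 92735 CPM in the knockout. The largest part of this sum was Myh4, with a mean of 103899 CPM in the control and 20582 CPM in the knockout. Of the 8 markers 6 were lower and 1 was higher, Myh1, with means of 7246 and 16074 CPM. In bulk muscle, fewer cells of a type and less RNA per cell cannot be told apart. Their part in the changes of the proteases was not tested.

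The proteases did not move as one group. In the knockout Lonp1, Htra2, Afg3l2 and Clpp rose, Oma1, Spg7 and Clpx fell, and Yme1l1, Parl and Pmpcb did not pass the threshold, so that 4 of 10 were higher and 3 of 10 lower. Among all genes 44.7% passed in either direction, 23.6% higher and 21.1% lower. Groups did not overlap in 8 of the 10 proteases, compared with 53.4% of all genes. The median log2 fold change of the 10 was 0.10, beside 0.065 over all genes. When libraries were scaled by their totals alone, 8498 of all 14012 genes were called higher and 873 lower. This scaling moved the median of all genes to 0.73, and 8 of the 10 were called higher and 0 lower. A change of scaling shifts all genes by about the same amount, so that by construction the distance of a gene from that median hardly moves (0.94 under both scalings for Lonp1, -0.95 under both for Oma1). Each rise or fall given below is therefore relative to the bulk of the other genes. The plot of values by library shows the same 10 genes before any test.

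**Figure D1:**
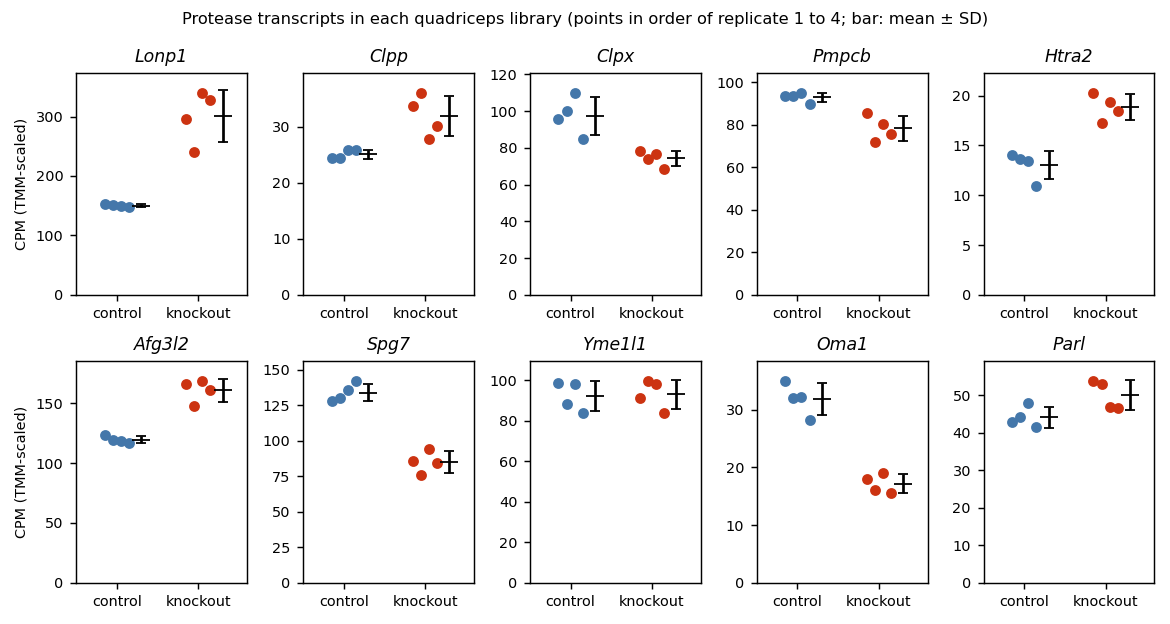
TMM-scaled CPM of each protease gene (vertical axes from 0) in the 4 control (blue) and 4 knockout (red) QF libraries, points in order of replicate 1 to 4, with bars for mean ± SD. Only Yme1l1 and Parl have overlapping groups, and Lonp1 has the widest gap, with 147 to 152 CPM against 240 to 339 CPM.

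Among the matrix proteases, Lonp1 doubled its level in the knockout. Lonp1 (chromosome 17, 56614297 to 56626903 of GRCm38, minus strand) had 152, 150.3, 150.2 and 147 CPM in control replicates 1 to 4 and 296, 240, 339 and 328 CPM in knockout replicates 1 to 4. The control libraries lay within a few CPM of each other, and the lowest knockout library was far above all of them. Between replicates the spread was 1.36% of the mean in the control and 14.7% in the knockout, where replicate 2 was the lowest. With a log2 fold change of 1.004, Lonp1 rose the most of the 10 (95% confidence interval from 0.77 to 1.24, adjusted p = 2.26e-05). In counts this was 1883 to 2336 reads per library in the control and 5241 to 8248 in the knockout. LONP1 is the main protease for oxidised matrix proteins and also binds mitochondrial DNA.

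The peptidase and the unfoldase of the ClpXP protease went opposite ways. Clpp (chromosome 17, 56990264 to 56996371, plus strand), which encodes the peptidase chamber, had 24.5, 24.4, 25.8 and 25.8 CPM in the control and 33.7, 35.9, 27.8 and 30.1 CPM in the knockout. Each knockout library was above every control library, though replicate 3 only slightly. At 0.34 on the log2 scale (standard error 0.09, adjusted p = 0.00685), this was the weakest of the 7 calls. Clpp passed in 6 of 15 alternative fits. It lost its call without any one of the control replicates, without knockout replicate 1 and without knockout replicate 2, with an adjusted p of at most 0.0219 and of 0.0249 with the adipocyte markers as a covariate. Clpx (chromosome 9, 65294260 to 65330658, plus strand), which encodes the ATP-driven unfoldase that feeds it, had 95.8, 100.2, 109.7 and 84.8 CPM in control replicates 1 to 4 and 78.2, 73.8, 76.8 and 68.6 CPM in the knockout. All knockout libraries were below all control libraries, with the closest pair at 78.2 and 84.8 CPM. The change was -0.39 on the log2 scale (standard error 0.09, adjusted p = 0.00293), and it turned to 0.28 with library totals alone. Without control replicate 2, the adjusted p of Clpx was 0.0101.

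Pmpcb (chromosome 5, 21737160 to 21757152, plus strand) encodes the catalytic subunit of the processing peptidase. It had 93.5, 93.2, 94.7 and 89.8 CPM in the control and 85.2, 71.7, 80.1 and 75.8 CPM in the knockout. Although the groups did not overlap, the log2 fold change of -0.25 (95% confidence interval from -0.40 to -0.09) missed the threshold at an adjusted p of 0.0106. By DESeq2 the adjusted p was 0.000597, and without knockout replicate 1 or 3 edgeR gave 0.0083 or 0.00782. It is the gene just outside the threshold, as Clpp is the one just inside, and with library totals alone its sign turned to 0.42. Pmpca, the gene of the partner subunit that recognises the presequence, fell from 160 ± 10.1 to 107 ± 7.09 CPM (SD, n = 4 each; log2 fold change -0.58, adjusted p = 8.88e-05). Pmpca shares 874 exon bases with Inpp5e on the other strand in GENCODE M21, and since the sources used here do not say whether counting used the strand, reads from the overlap cannot be told apart.

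In the m-AAA protease of the inner membrane, Afg3l2 rose while Spg7 fell. Afg3l2 (chromosome 18, 67404764 to 67449136, minus strand), whose product can form the protease alone or with paraplegin, had 123, 119, 118 and 117 CPM in the control and 166, 147, 168 and 161 CPM in the knockout. These groups were well apart, with a change of 0.43 on the log2 scale (standard error 0.06, adjusted p = 0.000283). Spg7 (chromosome 8, 123065508 to 123097751, plus strand) encodes paraplegin, which works in complexes with AFG3L2. It had 128.1, 130.1, 135 and 142 CPM in the control and 85.7, 75.6, 93.9 and 84.3 CPM in the knockout. No knockout library reached the control range. On the log2 scale Spg7 changed by -0.66 (standard error 0.08, adjusted p = 5.3e-05), and by 0.006 with library totals alone. Afg3l1, the gene of a further m-AAA subunit found in mice, went the way of Spg7, from 85.2 ± 4.33 to 59.9 ± 3.62 CPM (SD, n = 4 each; log2 fold change -0.51, adjusted p = 0.000133); it was chosen after its values were seen.

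Of the proteases that cut OPA1 from the intermembrane space side, Oma1 fell and Yme1l1 showed no change past its spread. Oma1 (chromosome 4, 103313846 to 103366428, plus strand) had 34.9, 31.95, 32.1 and 28.2 CPM in the control and 18.1, 16.1, 19.1 and 15.5 CPM in the knockout. The highest knockout library was well below the lowest control library. Oma1 had the largest fall of the 10, -0.89 on the log2 scale (standard error 0.09, adjusted p = 2.57e-05). With library totals alone the fall was -0.22 with an adjusted p of 0.0195. Raw counts of Oma1 were 432 to 488 in the control and 351 to 462 in the knockout. Yme1l1 (chromosome 2, 23156505 to 23199260, plus strand) had 98.6, 88.4, 97.8 and 83.9 CPM in the control and 91.2, 99.4, 98.0 and 83.8 CPM in the knockout. The groups covered the same range. For Yme1l1 the 95% confidence interval of the log2 fold change ran from -0.17 to 0.20 (estimate 0.01, adjusted p = 0.891), which bounds a change in either direction at these libraries. Opa1 itself, chosen after its values were seen, fell from 155 ± 2.87 to 100.3 ± 8.53 CPM (SD, n = 4 each; log2 fold change -0.63, adjusted p = 4.99e-05).

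The rhomboid protease gene Parl (chromosome 16, 20279820 to 20302362, minus strand) had 42.7, 44.3, 48.0 and 41.4 CPM in the control and 53.7, 53.1, 46.8 and 46.5 CPM in the knockout. Control replicate 3 lay above knockout replicates 3 and 4, so the groups overlapped. The log2 fold change was 0.18 (95% confidence interval from 0.01 to 0.35, adjusted p = 0.0638), not past the threshold. Htra2 (chromosome 6, 83051266 to 83054571, minus strand), the gene of the serine protease of the intermembrane space, had 14.1, 13.6, 13.5 and 10.9 CPM in the control and 20.2, 17.2, 19.4 and 18.5 CPM in the knockout. The groups did not overlap, and Htra2 rose by 0.54 on the log2 scale (standard error 0.10, adjusted p = 0.00113). Htra2 was the thinnest of the 10 in reads, with 173 to 208 counts per control library and 376 to 485 per knockout library. Its exons share 753 bases with those of Aup1 and 535 with those of Loxl3, both on the other strand, and the reads of these overlaps cannot be told apart for the same reason as in Pmpca. Aup1 was also higher (log2 fold change 0.42, adjusted p = 0.00153), while Loxl3 was at -0.61 (adjusted p = 0.0473), not past the threshold, and their part in the value of Htra2 was not tested.

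**Figure D2:**
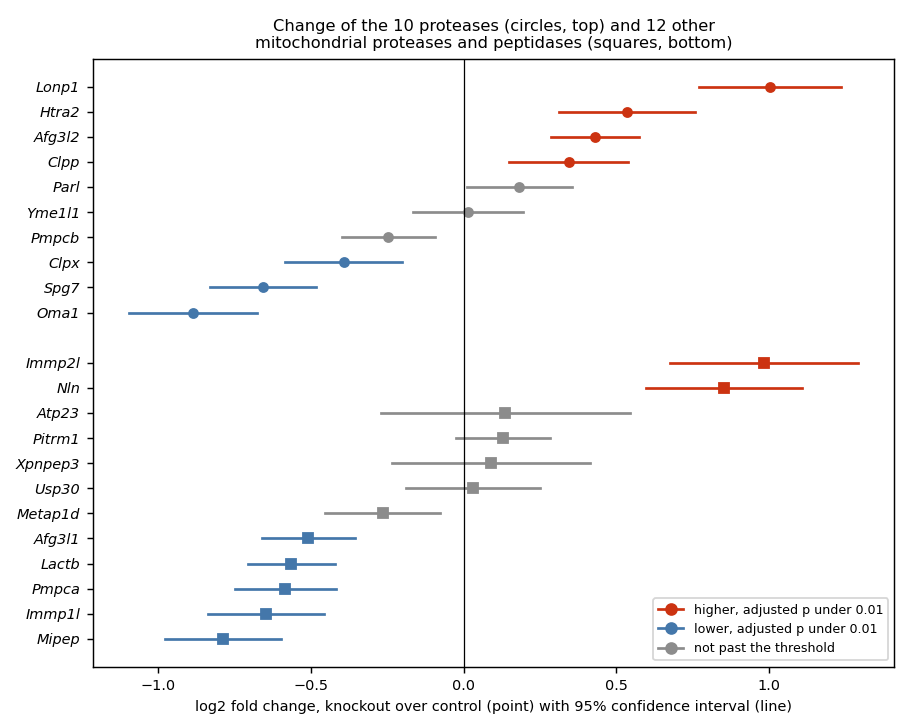
Log2 fold change of knockout over control (horizontal axis) with its 95% confidence interval for the 10 proteases (circles) and 12 other mitochondrial proteases and peptidases (squares), coloured by adjusted p under 0.01. The 10 run from -0.89 (Oma1) to 1.004 (Lonp1); with library totals alone Clpx, Spg7 and Pmpcb turn positive.

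Ratios of partner genes were then taken within each library, because such a ratio does not depend on how libraries are scaled. Each was computed as log2 of the counts with 0.5 added, and all 5 were tested by an exact two-sided permutation test over the 70 assignments of 4 against 4. In all 5 the groups did not overlap, and the exact p of 0.0286 is the smallest that 4 against 4 allow (0.0286 also after adjustment over the 5). For Afg3l2 over Spg7 and for Clpp over Clpx this outcome was fixed beforehand. In CPM the first gene of each pair lay above, and the second below, every control library in the knockout. Those p-values thus add nothing to the changes of the separate genes. Single genes did not overlap in 53.4% of all genes, and the share over pairs of genes was not computed. For levels per length the same ratios are given in FPKM, which scales fragments to exon length and to a size of the library. The largest shift was that of the m-AAA pair. Afg3l2 over Spg7 was 0.805, 0.767, 0.730 and 0.688 in FPKM in the control and 1.62, 1.63, 1.498 and 1.597 in the knockout. Paraplegin transcripts thus outnumbered those of Afg3l2 per length in all control libraries and were outnumbered in all knockout libraries. The log2 ratio changed by 1.09 (standard error 0.056).

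Clpp over Clpx was 0.611, 0.581, 0.563 and 0.727 in FPKM in the control and 1.03, 1.17, 0.865 and 1.05 in the knockout, a change of 0.73 in the log2 ratio (standard error 0.12). The transcript of the peptidase thus moved from below that of the unfoldase to about its level, with knockout replicate 3 still below it. Oma1 over Yme1l1 was 0.867, 0.885, 0.805 and 0.825 in FPKM in the control and 0.485, 0.396, 0.477 and 0.454 in the knockout, a change of -0.90 (standard error 0.073). Of this pair only Oma1 had groups that stood apart in CPM. Pmpcb over Pmpca went from 1.14 ± 0.0583 to 1.43 ± 0.0650 in FPKM (SD, n = 4 each), a change of 0.34 (standard error 0.049), since Pmpca was lower by more than Pmpcb was. Lonp1 over Clpp, the ATP-dependent proteases of the matrix, went from 2.43 ± 0.103 to 3.92 ± 0.986 in FPKM, a change of 0.65 (standard error 0.19). The wide spread of the last in the knockout came with replicate 2, the lowest at 2.72, and replicate 3, the highest at 4.96.

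**Figure D3:**
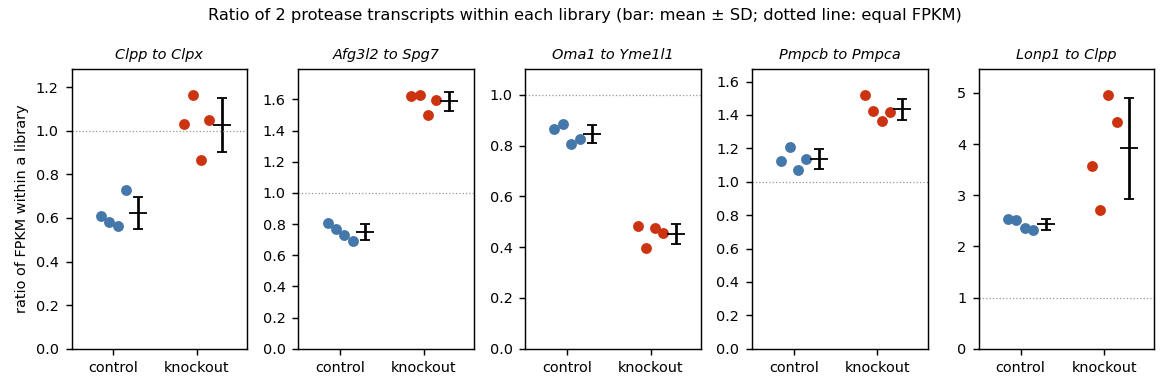
Ratio of FPKM of 5 pairs of protease genes within each control (blue) and knockout (red) library, axes from 0, bars for mean ± SD and a dotted line at equal FPKM. Groups do not overlap in any pair, where 53.4% of single genes did not overlap and the share over pairs of genes was not computed. Afg3l2 over Spg7 lies below the dotted line in every control library (at most 0.805) and above it in every knockout library (at least 1.498).

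The order of the proteases by level, which can be read only per length, also changed. In the control the mean FPKM fell from 58.7 ± 1.33 for Pmpcb through 52.8 ± 2.26 for Spg7, 51.0 ± 0.816 for Lonp1, 39.4 ± 1.07 for Afg3l2, 34.1 ± 3.55 for Clpx, 33.7 ± 2.07 for Parl, 21 ± 0.595 for Clpp, 20.4 ± 1.6 for Yme1l1 and 17.2 ± 1.52 for Oma1 to 7.61 ± 0.847 for Htra2 (SD, n = 4 each). The ranges of the neighbours Spg7 and Lonp1, Clpx and Parl, and Clpp and Yme1l1 overlapped, and the order of each pair held in 3 of 4 libraries. Yme1l1 and Oma1 also overlapped in range, but within each library Yme1l1 was the higher, in 4 of 4. In the knockout Lonp1 stood alone at the top with 99.4 ± 15.8 FPKM. It was followed by Afg3l2 with 51.5 ± 3.54, Pmpcb with 48.0 ± 3.71, Parl with 37.0 ± 2.48 and Spg7 with 32.5 ± 3.36 FPKM. The lower places were taken by Clpp with 25.9 ± 2.62, Clpx with 25.2 ± 1.58, Yme1l1 with 19.96 ± 1.7, Htra2 with 10.7 ± 0.782 and Oma1 with 9.03 ± 0.984 FPKM. There the ranges of Parl and Spg7, Spg7 and Clpp, and Clpp and Clpx overlapped, with their order held in 3 of 4 libraries, and those of Afg3l2 and Pmpcb overlapped with Afg3l2 the higher in 4 of 4. Oma1 and Htra2, the lowest of the 10 in both groups, changed places. In the control Oma1 was above Htra2 with no overlap, and in the knockout Htra2 was above Oma1 in 4 of 4 libraries, although their ranges overlapped.

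**Figure D4:**
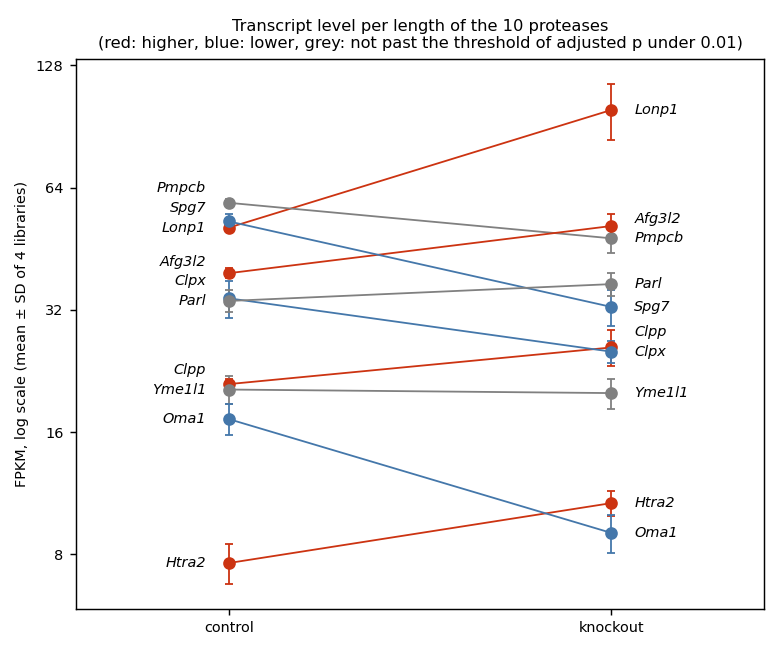
Mean FPKM ± SD of the 10 protease genes in 4 control and 4 knockout libraries on a log2-spaced axis, with lines joining the group means, red for called higher, blue for called lower and grey for not past the threshold (CPM fit, adjusted p under 0.01). Lonp1 leaves the group of Pmpcb and Spg7 for the top at 99.4 FPKM, and Oma1 drops from above Htra2 to below it.

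Among all genes 23.6% were called higher and 21.1% lower. Of 12 other mitochondrial proteases and peptidases 2 rose and 5 fell with TMM scaling, and the median was -0.12 on the log2 scale. Those higher were Immp2l, a subunit of the inner membrane peptidase (log2 fold change 0.98, adjusted p = 0.00017), and the oligopeptidase gene Nln (0.85, adjusted p = 0.000127). Those lower included Mipep, which trims presequences after the processing peptidase (-0.79, adjusted p = 2.99e-05), and Immp1l (-0.65, adjusted p = 0.000116). The subunits of the inner membrane peptidase thus went opposite ways, as did those of the m-AAA and ClpXP proteases, although Immp2l rests on a low level of 6.01 ± 0.985 CPM in the control and 11.9 ± 1.3 in the knockout (SD, n = 4 each).

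Of 11 scaffolds, partners and regulators of the proteases, 2 were higher and 5 lower, with a median of -0.10. The shares over all genes were 23.6% higher and 21.1% lower. Clpb, a disaggregase of the intermembrane space activated by PARL, was higher (log2 fold change 0.70, adjusted p = 6.72e-05), as was Phb2 (0.55, adjusted p = 0.000199), a prohibitin of the ring that surrounds the m-AAA protease. Phb, the gene of the other prohibitin of this ring, was lower (-0.51, adjusted p = 0.000644) and was chosen after its values were seen. Pink1, whose product is cut by PARL, was lower (-0.70, adjusted p = 0.00045), as was Dnajc19 (-0.63, adjusted p = 0.000532), which works with the prohibitins and the import motor. The prohibitin genes, whose products alternate in 1 ring, thus also split in direction.

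Of 15 genes whose proteins are cut or degraded by these proteases, 3 were higher and 7 lower, with a median of -0.26. The shares over all genes were 23.6% higher and 21.1% lower. Only transcripts were measured, so nothing here bears on cutting itself. Pdk4, the kinase that holds back pyruvate dehydrogenase, was lowest, at 1569 to 2680 CPM in the control and 88.1 to 534 CPM in the knockout (log2 fold change -2.82, adjusted p = 0.000836). Alas1, the first enzyme of haem synthesis and a substrate of LONP1 and ClpXP, also fell (-0.87, adjusted p = 0.0003). Slc25a39, the mitochondrial glutathione carrier whose level is set by AFG3L2, rose (0.96, adjusted p = 6.56e-06), and so did Prelid1, a lipid carrier degraded by YME1L1 (0.77, adjusted p = 0.000171). Dele1, the OMA1 substrate that passes mitochondrial stress to the cytosol, went from 94.5 ± 6.22 to 70.6 ± 7.66 CPM (SD, n = 4 each; -0.42, adjusted p = 0.00243) and was chosen after its values were seen.

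For comparison, 5 of 9 matrix chaperones were higher and 1 was lower (median 0.47). Of 12 stress response transcription factors 7 were higher and 2 lower (median 0.79), where 23.6% of all genes were higher and 21.1% lower. Hspa9, the gene of mtHSP70, rose from 604 ± 37.8 to 1328 ± 104 CPM (SD, n = 4 each; log2 fold change 1.14, adjusted p = 3.98e-06), beside 1.004 on the log2 scale for Lonp1. The list of chaperones also holds Clpb, which works in the intermembrane space. Hspe1, the co-chaperonin of HSP60, rose too (0.70, adjusted p = 0.00179), and Trap1, the mitochondrial HSP90, fell (-0.30, adjusted p = 0.00412). Among the factors Ddit3 (2.62, adjusted p = 5.94e-07) and Atf5 (2.38, adjusted p = 3.17e-07) rose most, and Esrra (-0.85, adjusted p = 7.02e-06) and Ppargc1a (-0.54, adjusted p = 0.00905), which drive mitochondrial biogenesis, fell. In the TCA cycle 15 of 16 enzymes were lower and 0 higher (median -0.70), led by Idh3a (-1.19, adjusted p = 1.22e-06) and Suclg1 (-1.10, adjusted p = 1.6e-06). The lists had been chosen with earlier results of these data known, and their counts are a description. With library totals alone, no gene of the lists of other proteases, of partners, of chaperones and of factors was lower, of the 15 substrate genes 9 were higher and 1 lower, and of the TCA enzymes 4 were lower and 1 higher. Under that scaling 8498 of all 14012 genes were higher and 873 lower.

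**Figure D5:**
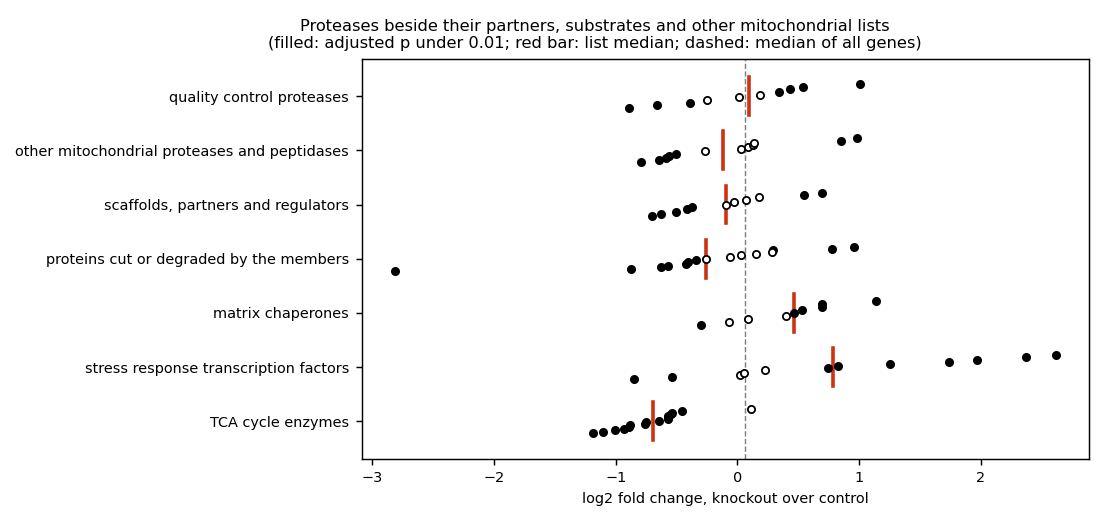
Log2 fold change of knockout over control (horizontal axis) for each gene of 7 lists (rows), filled where adjusted p was under 0.01, with a red bar at the list median and a dashed line at the median of all genes. The proteases straddle the dashed line, with a median of 0.10, whereas the TCA cycle enzymes lie below it (-0.70) and the stress response factors mostly above (0.79); with library totals alone all list medians but that of the TCA cycle are positive.

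The 5 genes most like Lonp1 were found by the root mean square difference of log2 CPM over the 8 libraries, after the control mean of each gene was taken off, among 8042 genes with a mean of at least 10 CPM. They were Lgals8 (0.0617), Ptrh2 (0.0657), Cnppd1 (0.0705), Tmem222 (0.0744) and Tmbim6 (0.0819), where the median over all compared genes was 0.769. None of them belongs to the lists used here. They share the libraries, and hence the knockout replicate in which Lonp1 was lowest.

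Markers of other cells were set beside the proteases, where 23.6% of all genes were called higher and 21.1% lower. For muscle fibres 6 of 8 markers were lower and 1 higher, with Myh4 (log2 fold change -2.34) and Actn3 (-2.33) lowest and Myh1 at 1.15. For adipocytes 0 of 6 passed, and their sum was 248 to 1459 CPM in the control and 685 to 2481 CPM in the knockout. With that signal as a covariate, an alternative chosen after the data were seen, 3 proteases were higher and 2 lower, with Clpp and Clpx (adjusted p = 0.0104) no longer past the threshold. For macrophages 1 of 6 was higher, Cd68 (2.62), with sums of 54.4 to 138 CPM and 115 to 209 CPM. Of the fibroblast markers 4 of 6 were lower (Col1a1 -1.92, Col3a1 -1.38), with sums of 1369 to 1899 CPM and 559 to 818 CPM. Of the endothelial markers 4 of 5 were lower (Cdh5 -0.82, Kdr -0.81), with 243 to 360 CPM and 175 to 196 CPM. For satellite cells Myf5 (1.44) and Cdh15 (0.51) were higher and Chrdl2 (-1.97) lower, with 28.5 to 31.8 CPM and 38.7 to 54.1 CPM over 4 markers. Schwann cell markers (25.8 to 86.3 CPM and 39.3 to 64.6 CPM) and erythroid markers (37.8 to 93.6 CPM and 8.11 to 89.7 CPM) passed in 0 of 4 each. Apart from the adipocyte covariate, the part of these cells in the protease values was not tested.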

How the data were processed

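QF RNA of 4 knockout and 4 control mice was sequenced as polyadenylated, strand-specific libraries (NEBNext Ultra II Directional). The deposited raw counts were made by the authors, who used bcl2fastq 2.20.0.422 and cutadapt, mapped with STAR 2.5.4b to GRCm38 and counted exons with Rsubread, leaving out duplicate, chimeric, multimapping and poorly mapped reads and genes under 50 reads in total. Whether counting used the strand, and the annotation release, are not given in the sources used here. The deposited FPKM values, made by the authors from counts and exon width, were used for levels. The library sizes they imply lie near the TMM-scaled sizes rather than the plain totals. FPKM levels of a gene compared between the groups therefore rest on such a scaling, whereas ratios within a library do not. The authors' DESeq2 1.32.0 columns (mean normalized signal, log2 fold change, its error and p-values) were not used.

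Counts of all 14012 genes were tested with edgeR 4.0.16 (R 4.3.3, limma 3.58.1) by glmQLFit and glmQLFTest, TMM scaling and the label as the only term. Of the alternatives, DESeq2 1.42.0 was one, beside other scalings, a filter of at least 1 CPM in at least 4 libraries, a replicate block, each library left out and an adipocyte covariate. The edgeR and DESeq2 fits were also run on simulated counts in which few genes changed, as many up as down. That setting leaves out the difference in composition between the groups and did not include the ratio test. Ratios were tested by exact permutation (Python 3.11.15, SciPy 1.17.1). Overlapping exons were read from GENCODE M21. The proteases and lists were chosen with earlier results of these data known. From each other list up to 2 genes with the largest and 2 with the smallest log2 fold change among those past the threshold were named, and other genes are marked as picked with their values known. The table's older symbols of Atp23, Maip1 and Dele1 were matched through RefSeq synonyms. The labels give the genotype of the mice and a running number. The study states n = 4 per genotype for this sequencing, so replicates were taken as separate animals.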

Additional observations from a re-analysis of the deposited data

How the results depend on the processing

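Lonp1, Htra2 and Afg3l2 passed the threshold in all 15 alternative fits, and Spg7 and Oma1 in 14 of 15. Scaling mattered most. With library totals alone 8 proteases were higher and 0 lower, 8498 of all genes were higher and 873 lower (90.68% of calls higher, 52.72% with TMM), and Clpx (0.28), Spg7 (0.0059) and Pmpcb (0.42) changed sign, by the construction of that scaling, which moved the median of all genes from 0.065 to 0.73. With RLE size factors and with DESeq2 Yme1l1 was at -0.030 (-0.03), RLE left Clpp at an adjusted p of 0.0106, and leaving out one library in turn put Yme1l1 between -0.043 and 0.048; the cause was not tested. Clpp lost its call without each control replicate in turn and without knockout replicates 1 and 2. Pmpcb passed with RLE (adjusted p = 0.00513), DESeq2, the filter (0.00972) and without knockout replicates 1 and 3.

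The deviations of same-numbered libraries correlated at 0.258, 0.0404, 0.534 and 0.148, and control replicates 1 and 3 but not 2 and 4 correlated best with their own number. This is mixed, and with 1 correlation near 0 and nothing in the labels that ties the numbers to litters or days, they were not taken as pairs. With the number as a replicate block 6123 genes passed in place of 6265, and Clpp missed the threshold (adjusted p = 0.0157). Over 4 pairs the mean change of a ratio equals the difference of group means by construction, and no exact sign-flip p below 0.125 is possible. The changes of the ratios were thus again 0.73 (Clpp over Clpx), 1.09 (Afg3l2 over Spg7), -0.90 (Oma1 over Yme1l1), 0.34 (Pmpcb over Pmpca) and 0.65 (Lonp1 over Clpp). Without one library in turn they ran from 0.66 to 0.81, 1.05 to 1.12, -0.94 to -0.84, 0.31 to 0.37 and 0.53 to 0.82, where 3 against 4 allow no exact p below 0.0571, and 5196 to 5867 of all genes passed. The order by FPKM was the same for 20 of 20 places with counts per kilobase. This is no separate check, since FPKM came from the same counts and exon widths, so that within a library the order cannot differ. Depth limits Htra2 most, with 173 counts in its thinnest library.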
